A study of Mus musculus with 6 samples.

Results

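Genes that restrain or report signalling through the kinase ERK were followed here. They are 10 of the 24672 genes in a deposited expression table of 6 mouse cell libraries: the ERK phosphatase genes Dusp4, Dusp5 and Dusp6, the Sprouty genes Spry1, Spry2 and Spry4, the Sprouty-related genes Spred1 and Spred2, and the Ets transcription factor genes Etv4 and Etv5. The members were chosen by their gene symbols, with the fold changes of several of them between these same libraries already known, so their values are a description and no p-value is given for them. All 10 symbols had a row, and 8 reached the mean of 1 FPKM (sequenced fragments scaled to transcript length and library depth) that was set for testing.

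RNA was sequenced as 3 libraries of cultured germline stem cells from females (FGSC) and 3 of the same kind of cells after induced differentiation (Dif-FGSC), all from C57BL/6 mouse cells passaged more than 20 times. FGSC grew on inactivated STO fibroblasts with 10 ng/mL LIF, 20 ng/mL EGF, 10 ng/mL basic FGF and 10 ng/mL GDNF. Dif-FGSC were reseeded on inactivated granulosa cells with 0.1 µmol/L retinoic acid, 10 ng/mL BMP4 and 10 ng/mL basic FGF, and the listed medium no longer held LIF, EGF or GDNF. Feeder cells, serum medium and basic FGF were thus part of both cultures, while the kind of feeder, the other growth factors and retinoic acid changed together and cannot be told apart. The series title places the work in the entry into meiosis under retinoic acid. Column names starting with con were read as FGSC and those starting with dif as Dif-FGSC, and each direction below rests on that reading.

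ERK is the last kinase of the Ras, Raf, MEK and ERK relay, which growth factor receptors switch on. Active ERK drives transcription of its own inhibitors, which act at successive levels of the relay. Sprouty and Spred proteins act near the receptor and Ras, and dual-specificity phosphatases such as Dusp6 remove the activating phosphates from ERK itself. Etv4 and Etv5 are Ets factors of the PEA3 group whose genes are commonly read as reporters of FGF and ERK activity, and Etv5 is known for its role in spermatogonial stem cells. In germline stem cell cultures the relay is fed by GDNF and FGF.

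Low FPKM values stepped in whole fragments, from which 27.2, 21.8 and 17.3 M fragments were estimated for FGSC and 22.5, 19.5 and 19.8 M for Dif-FGSC. Between 77.4% and 80.0% of the low values in a library lay within 0.1 of a whole fragment, where 20% would do so for a step unrelated to the values. Among 10 germ cell markers 7 did not reach 0.1 FPKM anywhere, and their sum ran from 0.0 to 0.253 FPKM in FGSC and from 0.606 to 0.929 in Dif-FGSC. Ddx4 did not exceed 0.0104 FPKM, and Dazl and Gfra1 were listed at 0 throughout, which goes against the cell type in the labels. The higher germ cell sum in Dif-FGSC came mostly from Zbtb16, listed at 0 in all FGSC libraries and at 0.433, 0.478 and 0.749 FPKM in Dif-FGSC. Stra8, a gene of meiotic entry, was listed at 0.0249, 0.0 and 0.0 FPKM in FGSC and 0.12, 0.0693 and 0.0686 in Dif-FGSC. Neither gene's groups overlapped, which was also the case for 70.7% of tested genes. Both were below the filter and not tested, and their fragments were not estimated. Ifitm3 went the other way, listed at 0.169, 0.0 and 0.177 FPKM in FGSC and at 0.0 in every Dif-FGSC library. The fibroblast markers Col1a1, Col1a2 and Col3a1 and the granulosa markers Foxl2 and Fshr, which would mark feeder cells, did not exceed 0.055 FPKM. Summed fibroblast markers ran from 0.314 to 0.588 FPKM in FGSC and from 0.094 to 0.186 in Dif-FGSC, and summed granulosa markers from 0.458 to 0.625 and from 0.298 to 0.474. Most of these sums came from Thy1 (up to 0.464 FPKM) and Amh (up to 0.615 FPKM). Most of 10 blood and mast cell markers were abundant in both groups. The 10 summed to 749 to 807 FPKM in FGSC and about 1000 in Dif-FGSC. The abundant ones were Ptprc, Laptm5, Gata2, Kit, Cpa3, Srgn and Spi1. The mast cell receptor gene Fcer1a did not exceed 0.0431 FPKM, Ms4a2 0.174 and Cd34 0.256. Ms4a2 was lower in Dif-FGSC without overlap of the groups and was not tested. Laptm5 (limma adjusted p = 1.98e-06), Srgn, Gata2, Kit and Ptprc were higher in Dif-FGSC, Cpa3 and Spi1 were not called, and the part of this shift in the results below was not tested. In such bulk libraries fewer cells of a type and less RNA per cell cannot be told apart.

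Of the 10 members, 7 had a window in a RefSeq table of 300 bases around gene starts (build GRCm38.p6, 250 bases before and 50 after the start). The 5 windows shown are those that hold a motif searched for, and each line gives the 100 bases before the start, 5′ to 3′ on the gene's strand, with matches in capitals.
Dusp5, chr19:53529045-53529144, plus strand: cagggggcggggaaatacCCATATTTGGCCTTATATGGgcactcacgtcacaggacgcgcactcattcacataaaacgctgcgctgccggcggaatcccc
Dusp6, chr10:99263131-99263230, plus strand: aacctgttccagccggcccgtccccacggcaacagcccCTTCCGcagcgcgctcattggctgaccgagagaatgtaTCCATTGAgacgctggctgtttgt
Spry2, chr14:105896820-105896919, minus strand: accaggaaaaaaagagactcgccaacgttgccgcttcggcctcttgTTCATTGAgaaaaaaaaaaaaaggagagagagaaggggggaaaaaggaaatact
Spred1, chr2:117120971-117121070, plus strand: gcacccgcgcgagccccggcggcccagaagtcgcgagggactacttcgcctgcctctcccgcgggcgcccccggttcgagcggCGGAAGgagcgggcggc
Spred2, chr11:19924342-19924441, plus strand: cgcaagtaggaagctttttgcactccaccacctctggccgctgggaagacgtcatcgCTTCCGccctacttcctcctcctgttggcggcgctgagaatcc

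The capitals in Dusp5 are 2 adjoining matches, starting at -82 and -72 from the gene's start, to the CArG box read by the serum response factor SRF (CC, then 6 bases that are each A or T, then GG). At least 1 such box occurs in 1.63% of 32851 windows and in 1 of 8 member windows, and the pattern was widened to this form after the Dusp5 sequence had been seen. The Dusp6 line holds an Ets match (CGGAAG on either strand) at -62 and an octamer of the kind bound by the repressor Cic at -24, and a second such octamer starts at position 2, after the printed bases. Cic, known as Capicua, represses ERK-responsive genes until ERK inactivates it. Spry2 has a Cic octamer at -54, and Spred2 has an Ets match at -43. In Spred1 an Ets match lies at -17 and another starts at position 8. Octamers were TGAATGAA, TGAATGGA, TCAATGAA and TCAATGGA on either strand, found in 3.84% of all windows and in 2 of 8 member windows, since Etv5 has 2 windows. Ets matches were in 16.9% of all windows and 3 of 8 member windows. No member window held the AP-1 letters TGACTCA, the CRE letters TGACGTCA, the EGR letters GCGGGGGCG, the STAT letters TTCNNNGAA or TATAAA, which occur in 5.2%, 1.79%, 2.91%, 8.3% and 13.6% of windows. The windows of Spry1 and Etv5 held none of the motifs searched. A match is a description of the letters and not of a bound site.

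**Figure D1:**
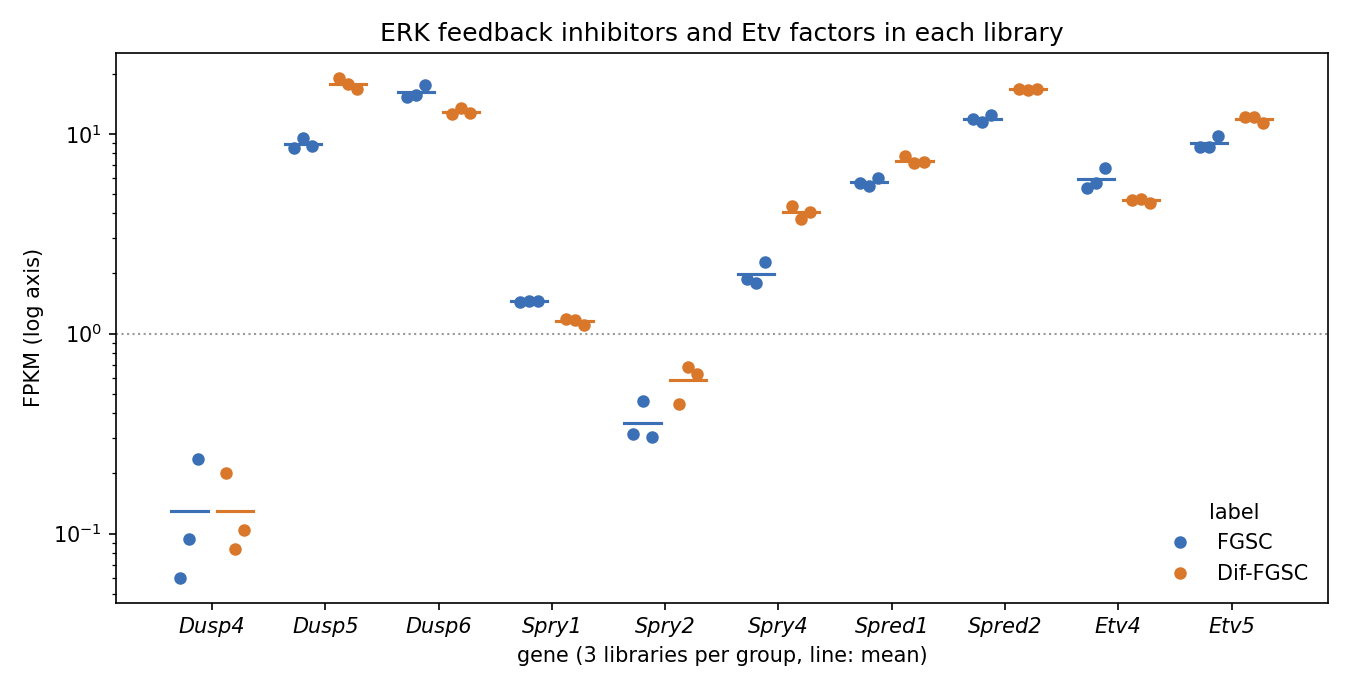
FPKM of each member in each library on a log axis, with FGSC in blue, Dif-FGSC in orange and a line at each group's mean. The dotted line at 1 FPKM is the mean required for testing. Dusp4 and Spry2 lie below it with overlapping groups, and the groups of the other 8 genes do not overlap.

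The members went both ways. Of the 8 that were tested, 5 were past the limma threshold as higher in Dif-FGSC and 3 as lower, in a comparison that called 36.5% of 9162 genes higher and 28.6% lower. The groups of 8 of the 10 members did not overlap, which was also the case for 70.7% of all tested genes. The median log2 difference, Dif-FGSC minus FGSC on the log2(FPKM + 1) scale, was 0.34 over the 8 tested members and 0.27 over all 10, beside 0.03 over all tested genes. These counts describe a list whose differences were partly known when it was drawn up, and nothing is read from them.

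The phosphatase genes split most plainly. Dusp5, which encodes a nuclear phosphatase that acts on ERK and is itself an ERK target, stood at 8.46, 9.53 and 8.66 FPKM in FGSC and 19.0, 17.7 and 16.7 in Dif-FGSC. Each Dif-FGSC library was above each FGSC library, with means of 8.88 ± 0.568 and 17.8 ± 1.15 FPKM (SD, n = 3 each). This is a ratio of 2.0 and a log2 difference of 0.93 ± 0.059 (SE), and 2.47% of the tested genes had a difference at least as large. Dusp6, whose product dephosphorylates ERK in the cytoplasm, went the other way. It stood at 15.3, 15.7 and 17.6 FPKM in FGSC and 12.5, 13.5 and 12.7 in Dif-FGSC, so the highest Dif-FGSC library stayed below the lowest FGSC library. Its means were 16.2 ± 1.24 and 12.9 ± 0.499 FPKM (SD, n = 3 each), a ratio of 0.796 and a log2 difference of -0.31 ± 0.057 (SE). Of the tested genes 12.9% had a difference as low or lower.

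Dusp4, a nuclear phosphatase of the same family, was close to absent. It was listed at 0.0603, 0.0941 and 0.237 FPKM in FGSC and 0.201, 0.0839 and 0.104 in Dif-FGSC, an estimated 4.49 to 12.3 fragments in a library against a floor of 3. The groups overlapped, and the spread within each was larger than the distance between their means. These estimates did not fall on whole fragments, so they are approximate. Rounded and pooled to 21 fragments in FGSC and 22 in Dif-FGSC, they gave a ratio of 1.12. Its 95% interval, exact for those counts, was 0.59 to 2.15 and covers counting error alone. At this depth the counts were compatible with any ratio in that range. The variation between libraries comes on top of it, and no smallest detectable change was computed.

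The make-up of the phosphatase trio changed more than its sum. Dusp6 was 64.2% ± 2.2 (SD, n = 3) of the summed FPKM of Dusp4, Dusp5 and Dusp6 in FGSC and 41.9% ± 2.07 in Dif-FGSC, and Dusp5 moved from 35.3% ± 2.48 to 57.7% ± 1.89. In every FGSC library Dusp6 was the more abundant, and in every Dif-FGSC library Dusp5 was. The sum itself was 25.2 ± 1.37 FPKM in FGSC and 30.8 ± 1.16 in Dif-FGSC. All 3 genes have 1 curated RefSeq transcript, so their FPKM may be compared per length.

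The Sprouty genes also diverged. Spry4, an inhibitor of signalling from receptor tyrosine kinases to Ras and Raf, was listed at 1.87, 1.79 and 2.28 FPKM in FGSC and at 4.33, 3.76 and 4.06 in Dif-FGSC. The groups lay well apart, with a ratio of 2.04 and a log2 difference of 0.76 ± 0.075 (SE). The added 1 FPKM shrinks this value, and with 0.01 in its place the difference was 1.03. Spry1, an inhibitor of the same step that limits GDNF signalling through Ret in the kidney, was listed at 1.44, 1.46 and 1.45 FPKM in FGSC and 1.19, 1.17 and 1.1 in Dif-FGSC. Its groups did not overlap, and its ratio of 0.798 was close to that of Dusp6. The log2 difference of Spry1 was -0.18 ± 0.049 (SE), and -0.32 with an added 0.01.

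Spry2, the Sprouty best known as an FGF-induced brake, was low. Its values were 0.316, 0.459 and 0.303 FPKM in FGSC and 0.445, 0.683 and 0.628 in Dif-FGSC, or an estimated 10.9 to 27.8 fragments in a library. Dif-FGSC replicate 1 fell within the range of FGSC, so the groups overlapped. Pooled over libraries there were about 50 fragments in FGSC and 75 in Dif-FGSC, a ratio of 1.61. Its exact 95% interval was 1.11 to 2.35 for counting error alone. That interval leaves out the variation between libraries and is not a test between the groups. Spry2 was below the filter and was not tested. Spry3, outside the list, was listed at 0 in every library.

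Both Spred genes were higher in Dif-FGSC by similar ratios. Spred proteins bring the Ras inhibitor neurofibromin to the membrane. Spred2 stood at 11.9, 11.4 and 12.4 FPKM in FGSC and at 16.8, 16.6 and 16.7 in Dif-FGSC, the lowest coefficient of variation of any member in that group (0.651%), with a ratio of 1.4 and a log2 difference of 0.46 ± 0.038 (SE). Spred1 stood at 5.7, 5.49 and 6.04 FPKM against 7.7, 7.11 and 7.2, with a ratio of 1.28 and a log2 difference of 0.31 ± 0.048 (SE). For both genes the groups were apart. The share of Spred1 in the pair was 32.6% ± 0.208 (SD, n = 3) in FGSC and 30.5% ± 0.802 in Dif-FGSC, so the pair kept its make-up far more closely than the phosphatases did. Their relative Spred3, outside the list, fell from 2.68 ± 0.429 to 1.62 ± 0.0746 FPKM (SD, n = 3 each, limma adjusted p = 0.00146).

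The Etv genes went opposite ways. Etv5 stood at 8.54, 8.56 and 9.71 FPKM in FGSC and 12.1, 12.1 and 11.3 in Dif-FGSC, with a ratio of 1.32 and a log2 difference of 0.37 ± 0.056 (SE). Etv4, its closest relative among the members, stood at 5.35, 5.65 and 6.74 FPKM in FGSC and 4.67, 4.74 and 4.51 in Dif-FGSC, with a ratio of 0.784 and a log2 difference of -0.29 ± 0.074 (SE). Neither gene's groups overlapped, although for Etv4 the gap between them was smaller than the gap between FGSC replicate 3 and the other FGSC libraries. Etv1, the remaining PEA3 factor, was listed at 0 in all libraries. Etv4 made up 39.8% ± 1.22 (SD, n = 3) of the summed FPKM of the pair in FGSC and 28.2% ± 0.382 in Dif-FGSC, while the sum was 14.9 ± 1.39 and 16.5 ± 0.606 FPKM.

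**Figure D2:**
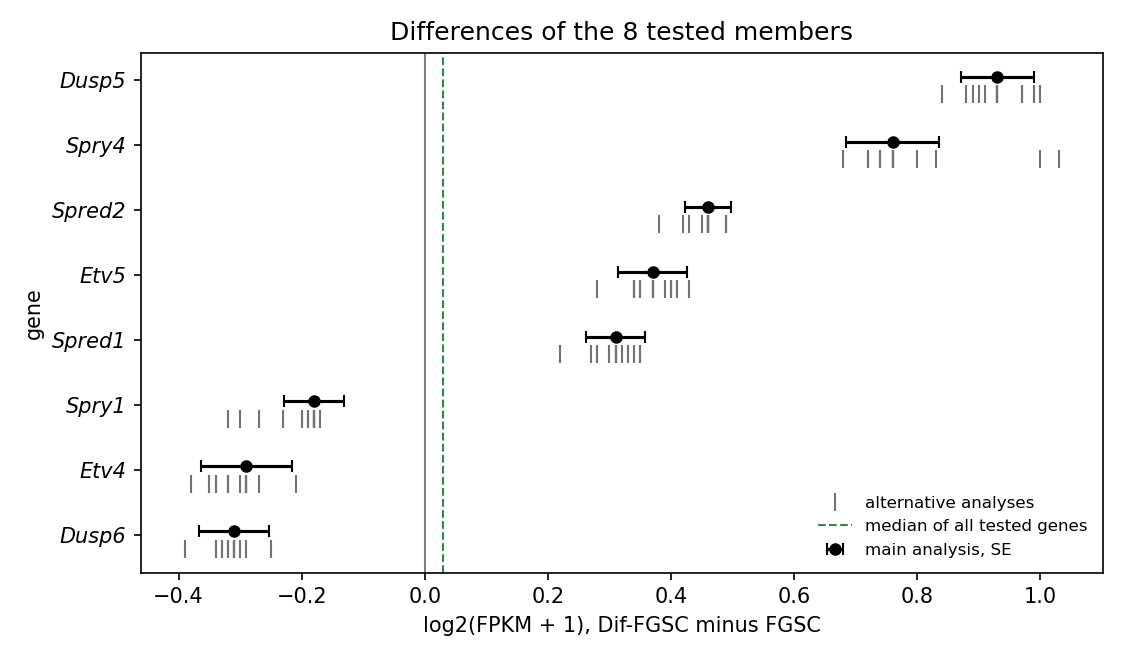
Log2(FPKM + 1) difference, Dif-FGSC minus FGSC, of the 8 tested members, with points and SE bars for the main analysis, grey ticks for the alternative analyses and a dashed line at the median of all tested genes (0.03). Dusp5 and Spry4 lie farthest to the right at 0.93 and 0.76, and Spry1, Etv4 and Dusp6 lie left of 0 under each alternative drawn.

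FGSC replicate 3 was the highest of its group for 7 of the 10 members (Dusp4, Dusp6, Spry4, Spred1, Spred2, Etv4 and Etv5), as it was for 43.4% of the 9162 tested genes. It is also the library with the fewest estimated fragments. Without it the log2 difference of Etv4 was -0.21, that of Dusp6 was -0.25 and that of Etv5 was 0.43, and the 5 higher and 3 lower calls were the same in number.

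A property of the table bears on levels set side by side. Values with more than 6 significant digits occurred in 78.2% of 6560 genes with 2 or more curated RefSeq transcripts and in 0.513% of 7800 genes with 1 transcript. Values averaged over a symbol's transcripts have such digits, and the averaging step is not stated in the sources used here. Among the members the extra digits occur in Spry1, Etv4 and Etv5, with 4, 3 and 2 curated transcripts, and not in Spred1, which has 2. A mean over transcripts leaves a ratio between libraries as it is but divides the level of the gene by its number of transcripts.

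Levels therefore read differently on the 2 scales. As deposited, Spry4 was 52.2% ± 4.17 (SD, n = 3) of the Sprouty sum in FGSC and 69.9% ± 2.81 in Dif-FGSC, with Spry1 at 38.3% ± 2.1 and 20.0% ± 0.906. With values multiplied by the number of transcripts, Spry1 was 71.2% ± 1.85 in FGSC and 49.9% ± 1.42 in Dif-FGSC, and Spry4 was 24.3% ± 2.63 and 43.7% ± 2.24. Which Sprouty gene led depended on the scale, while the direction of each share did not. The share of Etv4 fell from 49.7% ± 1.27 to 37.0% ± 0.44 on the multiplied scale.

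**Figure D3:**
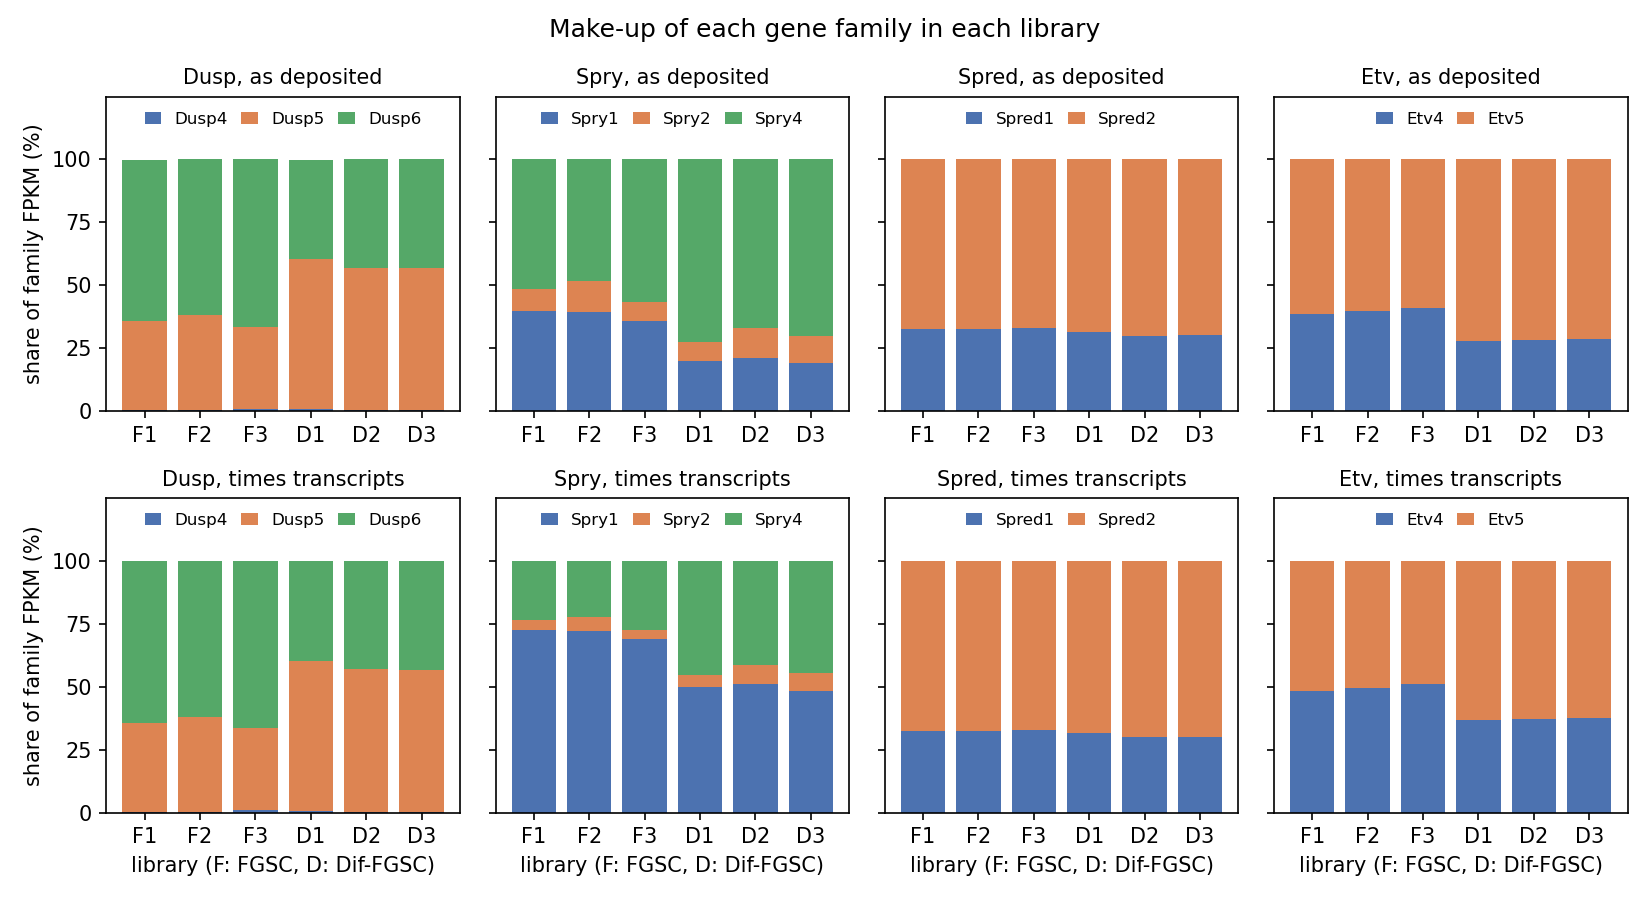
Share of each gene in the summed FPKM of its family (percent) in each library, with F for FGSC and D for Dif-FGSC, as deposited in the upper row and with values multiplied by the number of curated transcripts in the lower row. Dusp5 takes a larger share in each Dif-FGSC library on both rows, and Spry1 leads the Sprouty genes in the lower row but not in the upper one.

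As deposited, the members ranked in FGSC from Dusp6 through Spred2, Etv5, Dusp5, Etv4, Spred1, Spry4, Spry1 and Spry2 to Dusp4, where Etv5 and Dusp5 overlapped, as did Etv4 and Spred1. Among the 6 members with 1 curated transcript, order by FPKM changed between the groups. In FGSC Dusp6 led at 16.2 FPKM, followed by Spred2 at 11.9, Dusp5 at 8.88 and Spry4 at 1.98, and no neighbours among these 4 overlapped. In Dif-FGSC Dusp5 at 17.8 and Spred2 at 16.7 FPKM overlapped, and Dusp6 followed at 12.9. Spry4, Spry2 and Dusp4 came last in both groups.

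Most of the listed receptors that feed the relay were scarce, while Kit was abundant. Of 18 receptor genes for growth factors and cytokines, 16 did not reach 0.1 FPKM in any library, and Kit and Il6st were tested. The FGF receptor genes Fgfr1, Fgfr2, Fgfr3 and Fgfr4 did not exceed 0.0982 FPKM, Egfr and Gfra1 were listed at 0, and Ret, which signals for GDNF, did not exceed 0.0377. Lifr, the LIF receptor, did not exceed 0.00176 FPKM. These receptors bind the growth factors of the media. A value listed at 0 could also be a failed estimate, which was not checked. Kit, the receptor for stem cell factor on germ cells and mast cells, rose from 89.0 ± 5.2 to 114 ± 0.931 FPKM (SD, n = 3 each, limma adjusted p = 0.000195). Il6st, the shared receptor chain of the LIF family, was not called.

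Of 15 ligand genes 4 were tested. Areg, an EGF family ligand, stood at 0.329 ± 0.293 FPKM in FGSC and 1.85 ± 0.137 in Dif-FGSC and was called higher. It passed the filter only through its Dif-FGSC values, so its call is a description. Lif fell from 2.53 ± 0.135 to 1.94 ± 0.0965 FPKM (limma adjusted p = 0.00313). Vegfa stood at 2.97 ± 0.136 and 3.46 ± 0.149 FPKM (limma adjusted p = 0.0196), and its call was lost without FGSC replicate 2, Dif-FGSC replicate 1 or Dif-FGSC replicate 2 and after quantile normalization, over a range of adjusted p from 0.00431 to 0.196. Without Dif-FGSC replicate 1 or 2 no ligand was called higher, and without FGSC replicate 2 or Dif-FGSC replicate 3, or after quantile normalization, 1 was. Areg falls below the filter when any Dif-FGSC library is left out.

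Genes that link receptors to Ras were mostly higher in Dif-FGSC. Of 14 tested adaptors and Ras regulators 10 were called higher, 2 lower and 2 neither, with a median log2 difference of 0.26. Over all tested genes 36.5% were called higher and 28.6% lower. Cbl, a ubiquitin ligase for activated receptors, rose from 5.88 ± 0.457 to 12.7 ± 0.325 FPKM, a log2 difference of 1.0 ± 0.054 (SE, limma adjusted p = 4.94e-06). Crkl, an adaptor, rose from 8.93 ± 0.442 to 13.3 ± 0.276 FPKM and Dok2, an adaptor of blood cells that dampens Ras, from 19.0 ± 0.14 to 27.7 ± 2.02. Rasa2, a Ras GTPase-activating protein, fell from 7.33 ± 0.362 to 5.42 ± 0.0722 FPKM (limma adjusted p = 0.000204).

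Genes of the core relay went both ways. Of 17 tested genes of the Ras, Raf, MEK and ERK list 5 were called higher, 3 lower and 9 neither. After quantile normalization 2 were higher and 5 lower. The shares over all tested genes in the main analysis were 36.5% higher and 28.6% lower. Hras, Nras and Map2k1 were among those not called, with log2 differences of 0.01, 0.08 and -0.11. Rras2, a Ras-related GTPase, fell from 24.0 ± 2.12 to 13.4 ± 0.327 FPKM (limma adjusted p = 2.59e-05) and Mapk3, which encodes ERK1, from 35.5 ± 1.87 to 28.5 ± 0.827 (limma adjusted p = 0.000638). Braf rose from 2.95 ± 0.245 to 4.63 ± 0.0919 FPKM and Map2k2, which encodes MEK2, from 7.46 ± 0.551 to 10.8 ± 0.2.

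Immediate early targets of ERK were mostly higher in Dif-FGSC, by widely differing amounts, and none was called lower. Of 11 tested, 10 were called higher and Ier2 was not called. Their log2 differences ran from 0.13 for Ier2 to 3.37 for Fos, with a median of 0.95. Among all tested genes 36.5% were called higher. Fos rose from 0.461 ± 0.0487 to 14.1 ± 0.398 FPKM, Egr1 from 0.974 ± 0.24 to 12.2 ± 0.302, Fosb from 0.0409 ± 0.0137 to 4.85 ± 0.23 and Junb from 23.4 ± 0.661 to 64.5 ± 2.91. Fos, Egr1, Fosb and Atf3 had FGSC means below 1 FPKM and passed the filter only through their Dif-FGSC values. The count and the median of this list include these genes, so both are descriptions. The log2 difference of Dusp5 (0.93) was close to the median of this list, while those of Dusp6, Spry1 and Etv4 had the opposite sign. Srf, whose product reads the CArG boxes seen in the Dusp5 window, rose from 20.1 ± 0.738 to 22.8 ± 0.865 FPKM (limma adjusted p = 0.00738). This is a ratio of 1.13, and Srf was named after its values were seen. Whether Srf bears on the level of Dusp5 was not tested.

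Further brakes on cytokine and growth factor signals were also mostly higher. Of 11 tested genes of this list 9 were called higher, Ppp2ca was lower and Tob1 was not called, with a median log2 difference of 0.35. All tested genes together had 36.5% called higher and 28.6% lower. Phlda1, an ERK-induced gene, rose from 2.8 ± 0.327 to 7.8 ± 0.21 FPKM, Cish, a STAT5-induced cytokine inhibitor, from 11.3 ± 0.427 to 21.6 ± 0.187 and Socs1, another such inhibitor, from 24.7 ± 2.52 to 35.6 ± 2.7. Cic, whose octamer letters occur in the Dusp6 and Spry2 windows, rose from 10.1 ± 1.42 to 14.5 ± 0.424 FPKM (limma adjusted p = 0.00135). Those 2 genes had ratios of 0.796 and 1.63, and whether Cic bears on either was not tested. The list had 2 lower genes without FGSC replicate 2, with median-ratio scaling or with a lower filter. Its number of higher genes ran from 7 to 10 over the alternatives.

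Other dual-specificity phosphatases also split, with 3 of 5 tested called higher and 2 lower, beside 36.5% and 28.6% of all tested genes. Dusp1, an immediate early phosphatase for p38, JNK and ERK, rose from 2.18 ± 0.353 to 3.97 ± 0.392 FPKM (limma adjusted p = 0.000524). Dusp7, a cytoplasmic ERK phosphatase closely related to Dusp6, rose from 8.55 ± 1.1 to 12.1 ± 0.235 FPKM, the opposite sign to Dusp6, and Dusp2 from 8.7 ± 0.553 to 11.7 ± 0.597. Dusp16, which acts on JNK, fell from 2.9 ± 0.228 to 2.29 ± 0.14 FPKM (limma adjusted p = 0.00874). The lower call of Dusp3 was lost without FGSC replicate 1, Dif-FGSC replicate 2 or Dif-FGSC replicate 3, leaving 1 lower gene.

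Of 12 other Ets factors tested 5 were called higher, 1 lower and 6 neither, where 36.5% of all tested genes were higher and 28.6% lower. Elk4, an SRF partner, rose from 5.36 ± 0.358 to 11.7 ± 0.351 FPKM (limma adjusted p = 3.58e-06), Elk1, another SRF partner phosphorylated by ERK, from 6.35 ± 0.422 to 8.16 ± 0.142, and Etv6, a repressor of this family, from 5.84 ± 0.178 to 9.84 ± 0.0683. Gabpa stood at 24.1 ± 2.83 and 19.7 ± 0.775 FPKM (limma adjusted p = 0.0189), and its lower call was lost without FGSC replicate 1 or Dif-FGSC replicate 2, over a range of adjusted p from 0.000826 to 0.064. The blood cell factors Spi1 and Fli1 were not called.

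**Figure D4:**
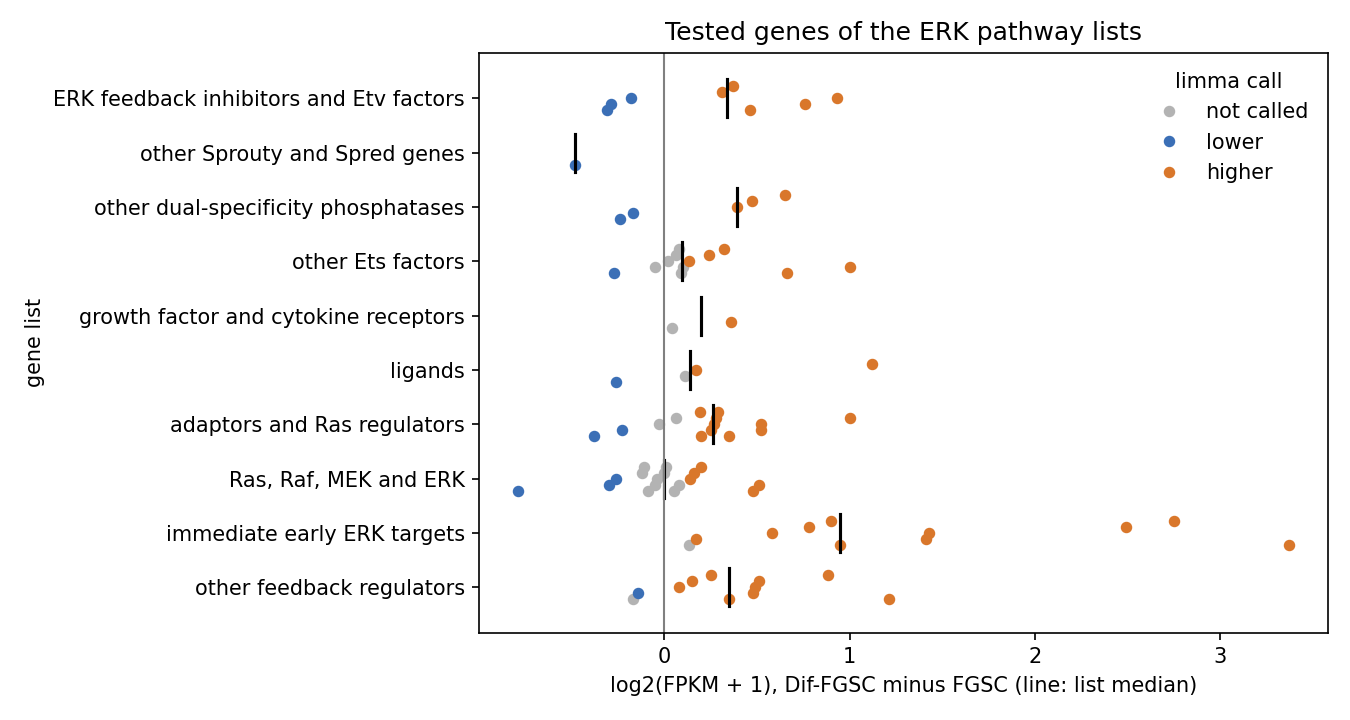
Log2(FPKM + 1) difference, Dif-FGSC minus FGSC, of each tested gene in the members' list and 9 lists of related genes, coloured by limma call, with a black line at each list's median. Immediate early targets reach farthest to the right with a median of 0.95, and genes of the core relay lie on both sides of 0.

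Counting each gene once, 77 of 125 genes in these 9 lists were tested, of which 45 were higher, 11 lower and 21 not called. Over all tested genes the shares were 36.5% higher and 28.6% lower. The median log2 difference of the 77 was 0.17, beside 0.03 over all tested genes. After quantile normalization 37 of the list genes were called higher and 15 lower. The lists were drawn up with earlier results of these libraries known.

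Genes whose pattern over the 6 libraries was most like that of a member were found among genes with a mean of at least 5 FPKM, by Pearson correlation of log2(FPKM + 1). The genes nearest to Dusp5 were Icmt (0.9983), Arpc4 (0.9973) and Rcor1 (0.9973), and 1369 of 6424 genes reached 0.95. Nearest to Spry4 were Map3k3 (0.9992), Vcl (0.9982) and Zfp512b (0.9981), with 1210 of 6425 genes at 0.95 or above. Fewer genes, 308 of 6424, were as close to Dusp6, led by Abraxas2 (0.9985), Cenpw (0.9958) and Abtb1 (0.9956). The libraries form 2 separate groups, so these values mostly restate the difference between the groups and are descriptions.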

How the data were processed

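The members and gene lists were chosen with earlier results of these data known. The authors deposited FPKM values per gene symbol for 6 libraries. HISAT2 4.8.2 and Cufflinks 2.2.1, with build mm9, are named without roles per the submitters' processing notes. The labels' protocols name Trizol extraction and a KAPA stranded mRNA kit. The sources used here name no annotation or strand setting. Of 24674 rows, 2 with duplicated symbols (the lower mean) and 1 value outside the named columns were left out. All genes with a mean of at least 1 FPKM (9162) were tested with limma 3.58.1 (lmFit, eBayes with trend, R 4.3.3) on log2(FPKM + 1), with Benjamini-Hochberg adjustment and calls at an adjusted p under 0.05. The script was tested on simulated data. Depth came from low values of genes among 11995 with 1 curated transcript, using GENCODE M21 lengths, and covers counting error only. Whether the libraries are separate cultures is not stated, so the p-values reflect library-to-library variation that could be technical, and 3 against 3 cannot give an exact two-sided permutation p below 0.1. Every member was named, with up to 4 called genes of each list (largest differences, values above 0 in every library), markers and the most similar genes. Further genes were named after their values were seen. The alternatives changed the pseudocount, filter, scaling, trend, replicate block, libraries used and, chosen after seeing the data, the number of transcripts. Some items are not reported here.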

Additional observations from a re-analysis of the deposited data

How the results depend on the processing

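The 5 higher and 3 lower calls among the members kept their number under all alternatives, except that 6 were past the threshold as higher with a filter of 0.1 FPKM, where Spry2 entered, and 5 with no filter. None of the 8 tested members changed direction under these alternatives. The median log2 difference of the tested members ran from 0.31 to 0.38 with 1 library left out. It was 0.25 after quantile normalization against 0.34 in the main analysis. Over all genes, 2789 to 3657 were called higher and 2317 to 3185 lower, and the higher share of calls was 56.0% in the main analysis, 50.3% with median-ratio scaling and 46.7% after quantile normalization. With the replicate number as a block, 3241 genes were higher and 2557 lower, and the members' counts were 5 and 3. Same-numbered libraries deviated together with correlations of 0.131, 0.0123 and 0.173, so the numbers were not taken to pair the libraries, and not every library was closest to its own number. Multiplying by transcripts made the log2 difference of Spry1 -0.27. Depth limits Dusp4 and Spry2, with fewer than 30 estimated fragments in each library.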
